A study of Zea mays with 24 samples.

Results

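GRF7 (GRMZM5G850129), GRF1 (GRMZM2G034876) and GRF10 (GRMZM2G096709), which encode growth-regulating factors, and gif1 (GRMZM2G180246), which encodes a GRF partner protein, were followed through a maize study of ligule formation. They were taken by identifier as 4 of the 109715 identifiers in the deposited tables, and all 4 passed the filter on low counts in every comparison. Polyadenylated RNA of laser-microdissected tissue was sequenced in 24 libraries, 3 in each of 8 groups, and each replicate pooled 5 to 6 plants. All plants were of the B73 cultivar. Wild-type P7 leaf primordia gave ligule, blade and sheath pieces cut from the adaxial L1, the outer cell layer of the upper leaf face, and the same regions cut through all cell layers. Ligule pieces were rectangles 100 µm high on the preligule band, the row of dividing cells from which the ligule grows, and the future blade and sheath were sampled 50 µm to either side. The libraries labelled lg1-R, from a mutant in liguleless1 (lg1), and those of wild-type siblings came from P6 primordia, 400 to 900 µm above the base. The study asked which genes mark the boundary of blade and sheath and which act downstream of lg1.

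Growth-regulating factors are plant transcription factors that carry a QLQ domain and a WRC domain. The QLQ domain binds GRF-interacting factors such as gif1, also called angustifolia3, which are coactivators that bring SWI/SNF chromatin remodellers to the target genes. GRF and GIF proteins keep cells dividing in young leaves and enlarge leaves when they are raised, and the microRNA miR396 cleaves many GRF transcripts as cells leave division. Maize GRF10 is known as a truncated GRF whose overexpression makes leaves smaller. The name GRF1 is carried by a second identifier, GRMZM2G178261, which is treated below as a separate gene and is always written with its identifier.

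Depth ran from 3818649 counts (ligule L1 replicate 2) to 52731783 counts (blade replicate 3 of all layers) per library, so a floor of 3 counts was worth 0.0569 to 0.786 CPM (counts-per-million, normalised for library composition). The tissue labels were checked against markers. Summed CPM of 4 epidermal ocl genes was 1030 to 3170 in the adaxial L1 against 415 to 694 in all layers of P7, and 9 abaxial yab and kan genes summed to 0 to 3.58 against 73.4 to 183 CPM. Summed CPM of 3 genes listed for vascular tissue was 451 to 926 in the adaxial L1 and 323 to 441 in all layers, and 2 of the 3, rld1 and rld2, are also known as adaxial genes. The lg1 transcript was at 10.2 to 19.2 CPM in ligule L1 and 1.76 to 16.2 CPM in ligule all layers, and at most 0.666 CPM in the blade and sheath libraries. It did not check the mutant label, since lg1 was at 2.36, 2.08 and 2.87 CPM in the libraries labelled lg1-R and at 0.636, 2.17 and 1.29 CPM in wild type. In all layers, blade replicate 3, ligule replicate 3 and sheath replicate 4 deviated from their group means together over all genes (Pearson r 0.392 to 0.462 between them). In the adaxial L1, ligule replicate 1 and blade replicate 2 correlated less with their own groups (mean r 0.894 and 0.914) than the other libraries of those groups (0.917 to 0.935). The sheath libraries of that layer were at 0.901, 0.903 and 0.909, all below blade replicate 2. Ligule replicate 1 and blade replicate 2 are called the libraries that stand apart below. In fits of both depths sheath replicate 4 of all layers was added to them. In bulk libraries fewer cells of a type and less RNA per cell cannot be told apart.

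GRF7 was the member with the largest difference between regions. In the adaxial L1 it had 0, 0 and 6 counts in the ligule libraries, against 673, 95 and 370 counts in blade and 129, 437 and 191 counts in sheath. In normalised CPM that is 0, 0 and 0.296 in ligule, 24.6, 13.1 and 29.0 in blade and 22.0, 26.4 and 19.4 in sheath. The ligule libraries lay far below every blade and sheath library, and replicate 3 was the only one with any count. Of the others, replicate 1 had the fewest genes detected of all libraries (18460) and replicate 2 the lowest depth. Genes detected ran from 18460 to 24929 in the adaxial L1 libraries and from 25959 to 31175 in all layers of P7. Pooled over libraries, GRF7 was 139-fold higher in blade than in ligule (95% interval 63.8 to 380) and 136-fold higher in sheath (62.1 to 371), intervals that cover counting error only.

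Through all layers GRF7 was present in the ligule at a reduced level. It had 6.32, 3.61 and 2.72 CPM in ligule, against 14.3, 17.6 and 17.7 CPM in blade and 16.2, 28.3 and 20.5 CPM in sheath, and the ligule libraries did not overlap with either. In the edgeR fits the log2 difference of GRF7 between the ligule and the mean of blade and sheath was -7.07 in the adaxial L1 (SE 0.74, adjusted p = 7e-05) and -2.15 in all layers (SE 0.31, adjusted p = 0.00104). The fold was similar against each neighbour. In the adaxial L1 it was -7.04 against blade and -7.10 against sheath, comparisons that called 4.23% and 4.04% of genes lower. In all layers it was -1.96 (adjusted p = 0.00365) against blade and -2.35 (adjusted p = 0.00176) against sheath, where 2.01% and 1.37% of genes were called lower. Of the 4 members, GRF7 was the only one called in all layers, where 1.83% of 22205 genes were called lower, and GRF7 and gif1 were called in the adaxial L1, where 4.78% of 18761 genes were called lower.

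The GRF7 difference was larger in the adaxial L1 than through all layers. The ligule step in the adaxial L1 minus that in all layers was -4.95 (SE 0.71, adjusted p = 0.00036 in edgeR), in a test that called 1.91% of 22334 genes in that direction. Within the ligule, GRF7 fell by 4.72 in the adaxial L1 relative to all layers (SE 0.64, adjusted p = 3.5e-05), a comparison that called 11.6% of genes lower. In blade the same layer difference was 0.41 (SE 0.43, adjusted p = 0.621) and in sheath 0.04 (SE 0.43, adjusted p = 0.967). Between blade and sheath GRF7 did not pass the test in either tissue depth, at -0.06 in the adaxial L1 and -0.39 in all layers. Without ligule replicate 3 of the adaxial L1 the fitted difference was -11.04, which is no measure of size because the remaining ligule libraries hold no count. Set against a floor of 3 counts over those 2 libraries, GRF7 was then at least 116-fold higher in blade and at least 113-fold higher in sheath than in ligule. On the log2(FPKM + 1) scale in limma, which understates changes of low genes, the ligule difference of GRF7 in the adaxial L1 was -3.68 (adjusted p = 4.91e-05) and the difference between the depths -1.90 (adjusted p = 0.0179).

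**Figure D1:**
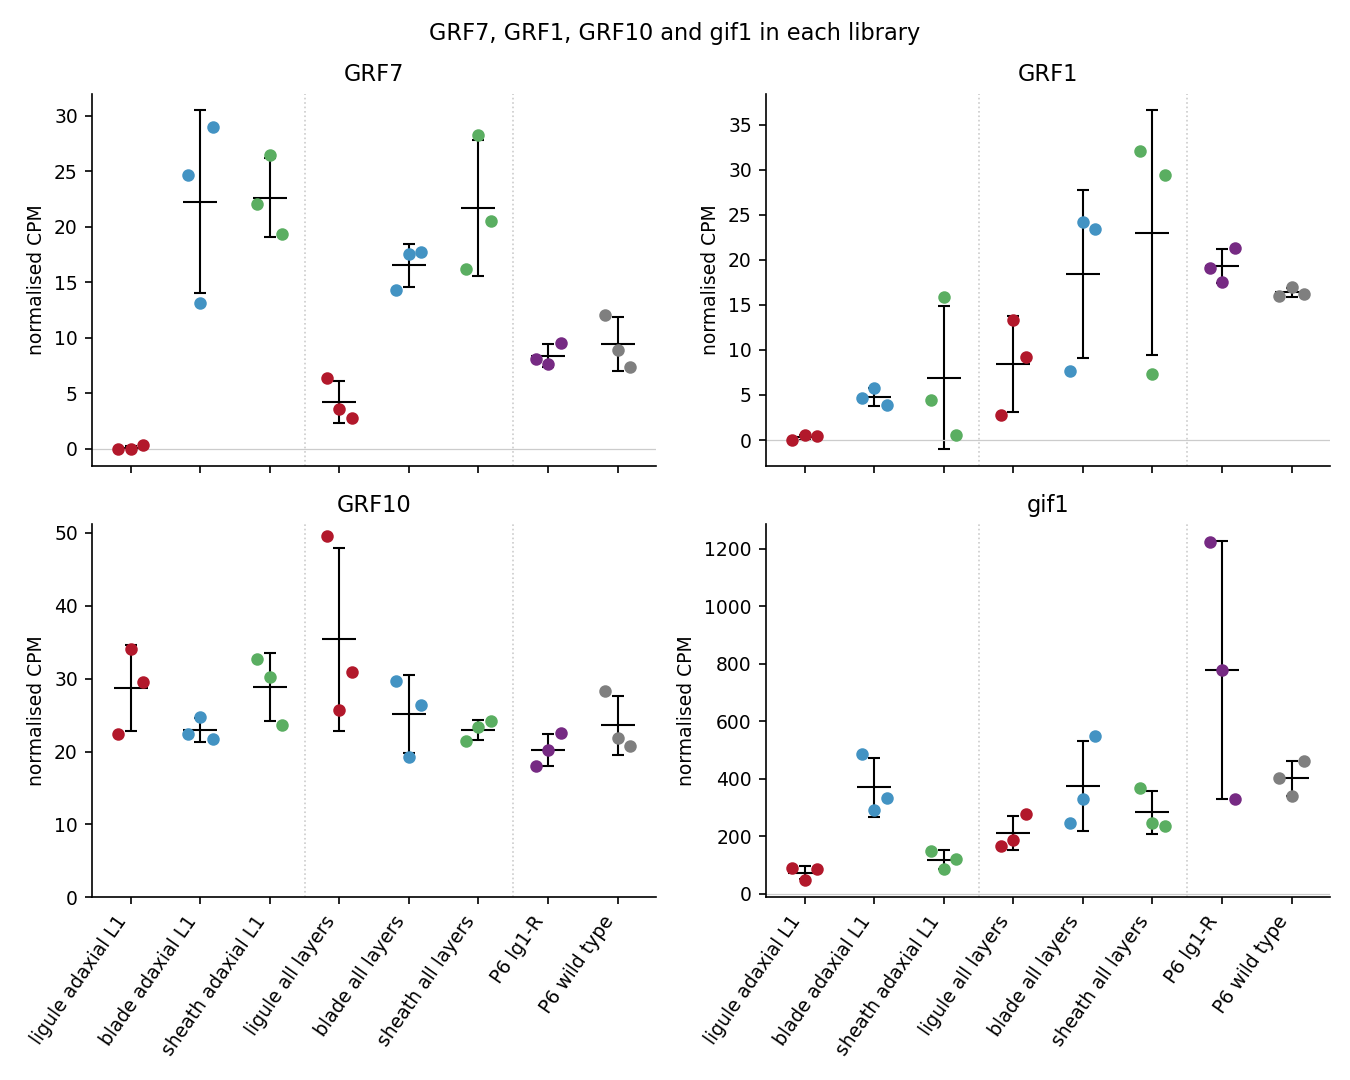
Normalised CPM (y axis, linear, a separate range in each panel) of GRF7, GRF1, GRF10 and gif1 in the 24 libraries; points are libraries, black bars the group mean and SD of 3 libraries. GRF7 lay at 0 to 0.296 CPM in the ligule of the adaxial L1 and at 2.72 to 6.32 CPM in the ligule of all layers, below every blade and sheath library, while GRF10 held 18 to 49.6 CPM throughout.

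GRF1 had its lowest group mean in the ligule of the adaxial L1, with overlap with sheath. It had 0, 2 and 9 counts in the ligule L1 libraries, against 126, 42 and 49 counts in blade and 26, 262 and 5 counts in sheath. In CPM the ligule had 0, 0.537 and 0.444, the blade 4.61, 5.81 and 3.84, and the sheath 4.43, 15.9 and 0.507. The ligule libraries lay below all blade libraries, but sheath replicate 3 lay among them. The ligule difference was -4.17 against the mean of blade and sheath (SE 1.22, adjusted p = 0.0554 in edgeR), which misses the threshold of 0.05, and it was -3.87 against blade and -4.46 against sheath (adjusted p = 0.0985 and 0.0587). Without sheath replicate 3 it was -4.46 and passed (adjusted p = 0.0215), and DESeq2 called it at -4.20 (adjusted p = 0.00111), while limma on log2(FPKM + 1) gave -1.54 (adjusted p = 0.105).

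Through all layers GRF1 had 2.80, 13.4 and 9.17 CPM in ligule, against 7.66, 24.2 and 23.4 CPM in blade and 32.1, 7.38 and 29.5 CPM in sheath. The 3 groups overlapped. The lowest library of each group was blade replicate 3, ligule replicate 3 and sheath replicate 4, the libraries that deviated together over all genes, at 1.08, 1.3 and 1.37 log2 units below their group means. The ligule difference was -1.28 (SE 0.60, adjusted p = 0.325 in edgeR), and it passed with no filter on low counts (-1.27, adjusted p = 0.000341). Same-numbered blade and ligule libraries of all layers were taken as paired from correlations in these same data. The blocked values are therefore exploratory. With the replicate as a block in those 6 libraries GRF1 fell by 1.2 in the ligule relative to blade (SE 0.22, adjusted p = 0.00243 in edgeR). Without the block it differed by -1.12 in the same 6 libraries (SE 0.58, adjusted p = 0.361). In the fit with sheath it also differed by -1.12 (SE 0.66, adjusted p = 0.454). The blocked fit called 12.9% of 22264 genes, the same libraries without the block 6.01%, and the fit with sheath, of 9 libraries, 4.75%.

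Within the ligule GRF1 fell by 4.79 in the adaxial L1 relative to all layers (SE 1.06, adjusted p = 0.00362 in edgeR). In blade that layer difference was -1.98 (SE 0.82, adjusted p = 0.144) and in sheath -1.73 (SE 0.81, adjusted p = 0.174), where it was -3.32 without sheath replicate 2 of the adaxial L1 (adjusted p = 0.0291). The ligule steps of the 2 depths differed by -2.94 (SE 1.18, adjusted p = 0.277), which did not pass in edgeR with the filter and passed without it (-2.94, adjusted p = 0.00581).

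GRF10 did not pass the test in the ligule in either tissue depth, and its fitted differences were positive. It had 22.5, 34.1 and 29.6 CPM in the adaxial L1 of the ligule, against 22.4, 24.8 and 21.7 CPM in blade and 32.7, 30.2 and 23.6 CPM in sheath. In all layers it had 49.6, 25.7 and 30.9 CPM in ligule, 29.7, 19.3 and 26.4 CPM in blade and 21.5, 23.3 and 24.1 CPM in sheath. The ligule libraries of all layers lay above all 3 sheath libraries and overlapped with blade. The ligule difference was 0.20 in the adaxial L1 (SE 0.27, adjusted p = 0.774 in edgeR) and 0.57 in all layers (SE 0.23, adjusted p = 0.22). GRF10 passed the test in none of the 14 comparisons, and its layer differences were -0.34 in ligule, -0.15 in blade and 0.31 in sheath.

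gif1, the coactivator, had the highest FPKM of the members in every library and was lowest in the ligule of the adaxial L1. In that layer it had 88.7, 47.0 and 86.2 CPM in ligule, against 487, 292 and 332 CPM in blade and 150, 86.0 and 121 CPM in sheath. The ligule libraries lay well below blade and overlapped with sheath at its lowest library. gif1 fell in the ligule by 1.45 relative to the mean of blade and sheath (SE 0.27, adjusted p = 0.00469 in edgeR) and by 2.25 relative to blade (SE 0.31, adjusted p = 0.000537), while the difference from sheath was -0.65 (SE 0.30, adjusted p = 0.258). Blade was in turn above sheath by 1.60 (SE 0.30, adjusted p = 0.0146), where 0.858% of genes were called higher, so that gif1 stood high in blade and low in both ligule and sheath. The blade and sheath call was lost without blade replicate 1 (1.36, adjusted p = 0.0686), without sheath replicate 2 (1.41, adjusted p = 0.062) and in unfiltered limma on log2(FPKM + 1) (1.49, adjusted p = 0.0902).

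Through all layers the gif1 groups overlapped. It had 167, 187 and 277 CPM in ligule, against 245, 330 and 550 CPM in blade and 367, 247 and 234 CPM in sheath. The ligule difference was -0.62 (SE 0.28, adjusted p = 0.295 in edgeR), with -0.82 against blade (SE 0.32, adjusted p = 0.194) and -0.41 against sheath (SE 0.32, adjusted p = 0.689). With the replicate as a block in the 6 blade and ligule libraries, a pairing taken from these data, the difference from blade was -0.77 (SE 0.19, adjusted p = 0.0132 in edgeR). It was -0.82 in the same libraries without the block (SE 0.32, adjusted p = 0.172). Blade against sheath was 0.40 (SE 0.32, adjusted p = 0.847).

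In the adaxial L1 relative to all layers, gif1 fell by 1.53 in ligule (SE 0.33, adjusted p = 0.0027 in edgeR) and by 1.27 in sheath (SE 0.33, adjusted p = 0.0123), and it differed by -0.04 in blade (SE 0.32, adjusted p = 0.964). The median of all genes in these comparisons was -0.15 in ligule and -0.09 in both sheath and blade. The sheath call was lost without sheath replicate 3 of all layers (-1.05, adjusted p = 0.0612) and without sheath replicate 2 of the adaxial L1 (-1.09, adjusted p = 0.0647). Neither the ligule step (-0.87, SE 0.39, adjusted p = 0.356) nor the blade and sheath difference (1.23, SE 0.45, adjusted p = 0.437) was shown to differ between the adaxial L1 and all layers. The second of these comparisons, which called 0.157% of genes, was added after the values were seen.

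Of the 4 epidermal markers, 2 were called lower in the ligule at each depth and 0 higher. Over all genes 4.78% were called lower and 2.95% higher in the adaxial L1, and 1.83% and 2.74% in all layers. The median log2 difference of the 4 was -0.957 in the adaxial L1 and -0.555 in all layers. The HD-ZIP genes ocl1 and ocl3, known from the maize outer cell layer, were lower in the ligule by 1.3 and 1.65 on the log2 scale in the adaxial L1 and by 1.05 and 1.06 in all layers (edgeR adjusted p = 0.000909, 0.000976, 0.00504 and 0.0073), while ocl4 and ocl5 did not pass. Over the 4 listed ocl genes, summed CPM was 1030 to 1300 in ligule L1, against 2020 to 3170 in blade and 1620 to 2570 in sheath, and 415 to 478 in ligule all layers, against 576 to 694 in blade and 529 to 642 in sheath. None of the 4 was without counts in a group. Of the 5 genes listed as photosynthetic, summed CPM was 0.931 to 13.2 in ligule L1, against 17.7 to 25.6 in blade and 6.9 to 18.6 in sheath, and 25.8 to 42.7 in ligule all layers, against 14.9 to 19.4 in blade and 44.3 to 48 in sheath. The ligule lay below blade and overlapped with sheath in the adaxial L1, and lay between blade and sheath in all layers. In ligule L1 3 of the 5 had no count, against 2 in blade L1 and 2 in sheath L1. Of 3 tested in the adaxial L1, 1 was called lower in the ligule and 0 higher, against 4.78% and 2.95% of all genes. It was GRMZM5G899080, listed by its symbol Pep1 alone (-2.69, adjusted p = 0.0315 in edgeR). In all layers 1 of 4, Ppdk1, was called higher (adjusted p = 4.93e-05) and 0 lower, against 2.74% and 1.83%, and 1 of 4 had a lower ligule step in the adaxial L1 than in all layers, against 1.91%, namely ssu1, a Rubisco small subunit gene (adjusted p = 0.0345 in edgeR).

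Of the 3 genes listed for vascular tissue, summed CPM was 636 to 926 in ligule L1, against 451 to 619 in blade and 549 to 735 in sheath, and 411 to 441 in ligule all layers, against 323 to 354 in blade and 326 to 374 in sheath. The ligule lay above blade in both depths, above sheath in all layers, and overlapped with sheath in the adaxial L1. Neither of the 2 genes tested, rld1 and rld2, passed in either depth in edgeR, and 1 of them, rld2, had an unadjusted p below 0.05 in each (0.63 in all layers, adjusted p = 0.0501, and 0.52 in the adaxial L1, adjusted p = 0.115). The part of the epidermal, photosynthetic and vascular genes in the GRF7, GRF11 and gif1 results was not tested.

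The other genes of the family came from the name table. With the members, 18 identifiers were named as GRF or GIF genes, 16 GRF genes, gif1 and GIF2; GRF9 (GRMZM5G893117) failed the filter in every comparison and GIF2 in the adaxial L1. In all layers 4 of 17 genes tested were called lower in the ligule and 0 higher, against 1.83% and 2.74% of all genes. The family's median log2 difference was -0.56 beside 0.03 over all genes. At an unadjusted p below 0.05 in edgeR 8 were lower and 1 higher. DESeq2 called 7 lower and 0 higher, and limma 3 lower and 0 higher of 16 tested. Shares of all genes here and below are of edgeR calls, and none is given for the other counts. Besides GRF7, edgeR called GRF5 (-1.34, SE 0.28, adjusted p = 0.0124), GRF11 (-1.16, SE 0.27, adjusted p = 0.0262) and GRF3 (-0.84, SE 0.19, adjusted p = 0.0222). The GRF3 call was lost under 9 of 17 alternatives, that of GRF11 under 5 and that of GRF5 under 1. Without ligule replicate 5 GRF7 was the only family gene called, and without blade replicate 4 or 5 only 2 were called. Against blade in the 6 libraries with the replicate block, 8 of 17 were called lower and 0 higher. The 8 were GRF7, GRF3, GRF11, GRF12, GRF1, GRF5, GRF9 (GRMZM2G124566) and gif1. In the same 6 libraries without the block 4 were called lower and 0 higher, as in the fit with sheath. The share of all genes called in either direction in these fits was 12.9%, 6.01% and 4.75%, so both the family count and that over all genes rose with the block. In the fit with sheath 2.01% of all genes were called lower.

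In the adaxial L1, 6 of 16 family genes tested were called lower in the ligule and 1 higher, against 4.78% and 2.95% of all genes, with a family median of -0.98 beside -0.001. GRF11 was, after GRF7, the clearest of them. It had 1.96, 1.34 and 1.48 CPM in ligule, against 26.9, 28.3 and 25.9 CPM in blade and 18.8, 10.7 and 8.21 CPM in sheath, and it fell by 3.46 (SE 0.46, adjusted p = 0.000402 in edgeR). Its ligule step also differed between the adaxial L1 and all layers (-2.34, SE 0.46, adjusted p = 0.00642 in edgeR). In that test edgeR called 2 of 17 family genes lower, GRF7 and GRF11, against 1.91% of all genes. DESeq2 called 1 higher besides 2 lower.

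GRF13 (GRMZM2G018414) went the other way. It had 53.5, 75.2 and 82.4 CPM in ligule L1, against 18.8, 8.43 and 18.1 CPM in blade and 13.3, 45.0 and 13.4 CPM in sheath, and it rose by 1.92 (SE 0.39, adjusted p = 0.00737 in edgeR), with no overlap. In all layers GRF13 was at 36.1, 28.3 and 17.6 CPM in ligule, among the blade libraries at 20.3, 20.2 and 31.5 CPM and the sheath libraries at 17.5, 23.9 and 22.7 CPM, a difference of 0.28 (adjusted p = 0.669). Against the mean of blade and sheath, the calls of GRF11 and GRF13 in the adaxial L1 held under all 18 alternatives run for them. Against blade alone GRF13 was at 2.27 (adjusted p = 0.012), a call lost under 1 of 18, and against sheath alone at 1.57 (adjusted p = 0.0713), which did not pass. The remaining called genes there, with smaller differences, were GRMZM2G178261 (-0.78, adjusted p = 0.0242), GRF12 (-0.93, adjusted p = 0.0256) and GRF3 (-1.15, adjusted p = 0.0496), and GRF3 lost its call under 12 of 18 alternatives, GRF12 under 9 and GRMZM2G178261 under 4. Leaving out ligule replicate 2 reduced the calls of either direction in the family to 4, against 7.

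**Figure D2:**
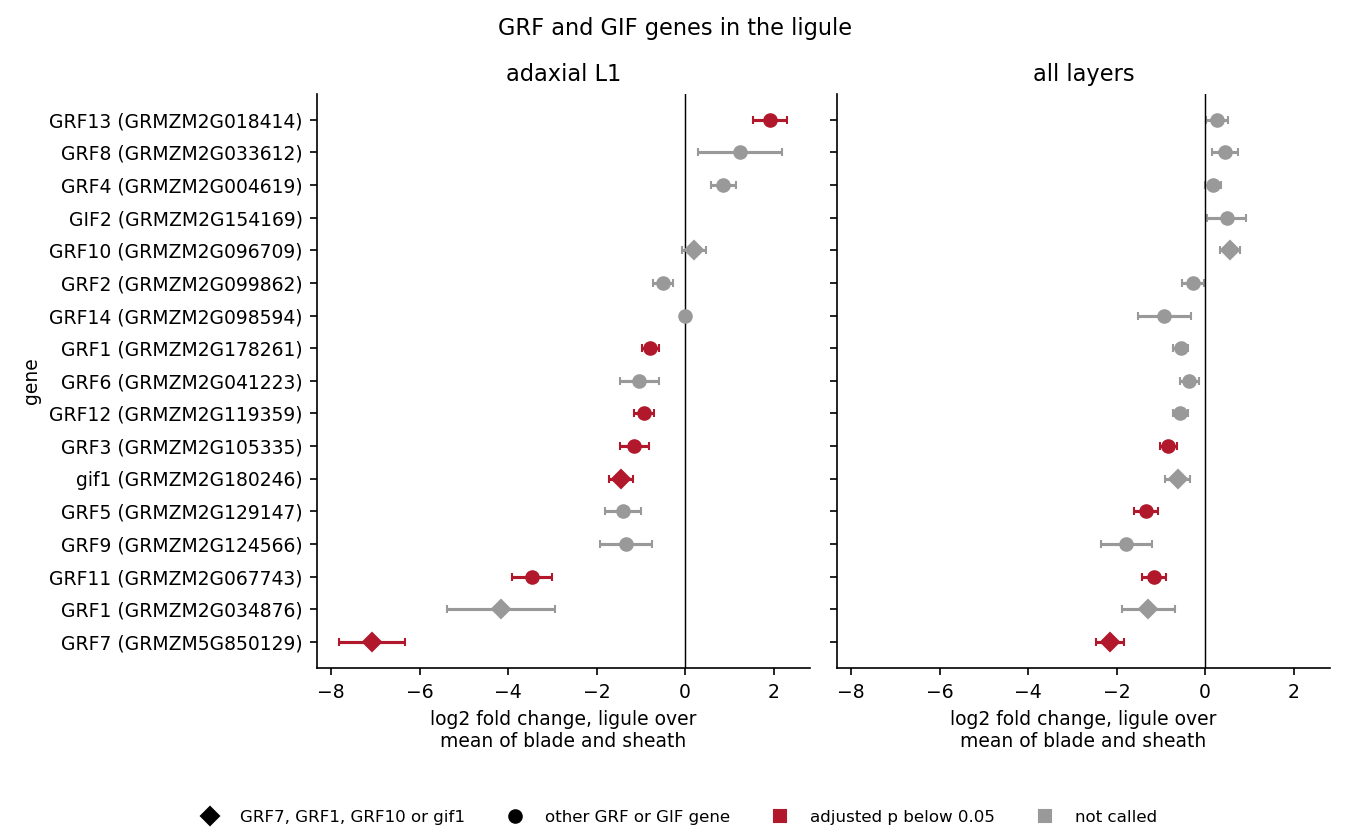
Log2 fold change of the ligule over the mean of blade and sheath (x axis) for each tested GRF and GIF gene (y axis), in the adaxial L1 and in all layers on the same scale. Bars are the SE worked back from the F value of the edgeR test. Red marks an adjusted p below 0.05 in edgeR and diamonds mark GRF7, GRF1, GRF10 and gif1; GRF7 lies at -7.07 and -2.15, GRF13 at 1.92 and 0.28. GIF2 was not tested in the adaxial L1, and no error bar is drawn for GRF14 there, whose fitted difference and F value were both near 0.

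Between the adaxial L1 and all layers within the ligule, 5 of 17 family genes were called lower and 2 higher, against 11.6% and 4.85% of all genes. The lower ones were GRF7, GRF1, gif1, GRF11 (-3.16, adjusted p = 1.8e-05 in edgeR) and GRF6 (-1.86, adjusted p = 0.00188). The higher ones were GRF13 (1.34, adjusted p = 0.032) and GRMZM2G178261 (0.60, adjusted p = 0.0463), and of 26 alternatives 7 lost the GRF13 call and 14 that of GRMZM2G178261. In sheath 3 were lower (gif1, GRF11 and GRF6) and GRMZM2G178261 higher, against 8.64% and 4.55% of all genes, and in blade GRMZM2G178261 was higher (0.86, adjusted p = 0.00967 in edgeR) while 0 were called lower, 4 at an unadjusted p below 0.05 and 2 in limma, against 4.02% of all genes higher and 5.36% lower. Blade and sheath differed in 1 family gene in all layers, GRF12 (0.98 higher in blade, adjusted p = 0.0287, with 0.504% of all genes called higher), a call lost under 7 of 17 alternatives, and in gif1 in the adaxial L1.

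Because the genes differ in length, their levels were set against each other in FPKM (fragments per kilobase of transcript, scaled to the depth of the library). In ligule all layers gif1 had 158, 162 and 275 FPKM, GRF10 44.7, 21.3 and 29.2 FPKM, GRF1 2.03, 8.44 and 6.67 FPKM and GRF7 4.81, 2.53 and 2.18 FPKM. gif1 thus exceeded the 3 GRF members in each library. GRF7 and GRF1 changed order between libraries. Among the 16 GRF genes, GRMZM2G178261 made up the largest share of the summed GRF FPKM, 23.0% to 50.7% over the 8 group means.

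The ligule held less GRF transcript in sum. The FPKM of the 16 GRF genes summed to 329 ± 26.9 in ligule L1 (SD, n = 3), against 464 ± 45.5 in blade and sheath together (n = 6), and to 377 ± 63.9 against 497 ± 30.1 in all layers. In each depth all ligule libraries lay below all others (two-sided exact permutation p = 0.0119, the smallest that 84 splits allow, adjusted p = 0.019 over 8 tests). Without GRMZM2G178261 the sums were 203 ± 37.2 against 256 ± 40.1 FPKM in the adaxial L1 and 280 ± 62.4 against 364 ± 41.7 FPKM in all layers (exact permutation p = 0.119 and 0.0595), and neither passed.

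GRF10 was 1 of several GRF genes with a larger share of that sum in the ligule. Of the 16 genes, 4 had ligule shares above all blade and sheath libraries in all layers (GRF4, GRF8, GRF10 and GRF13) and 3 in the adaxial L1 (GRF4, GRF10 and GRF13), while GRF7 and GRF11 lay below them in both depths. The other shares overlapped, 10 in all layers and 11 in the adaxial L1. How many genes outside the family separate in this way was not counted, so these numbers of genes only describe the shares. GRF4 made up 8.09% ± 0.141 in ligule L1, against 3.20% ± 0.908 in blade and 2.76% ± 0.504 in sheath (n = 3 each), and GRF8 1.71% ± 0.586 in ligule all layers, against 0.83% ± 0.0505 and 0.965% ± 0.158. GRF10 made up 5.35%, 7.24% and 6.85% of GRF FPKM in ligule L1, against 3.04% to 5.24% in the 6 blade and sheath libraries, and 5.81% to 10.02% in ligule all layers, against 3.07% to 4.73%. The shares did not overlap in either depth (two-sided exact permutation p = 0.0119, adjusted p = 0.019). Without GRMZM2G178261 in the sum the share of GRF10 was 10.6% ± 0.689 in ligule against 7.07% ± 1.95 in the adaxial L1 (exact permutation p = 0.0357, adjusted p = 0.0476) and 11.3% ± 2.97 against 5.41% ± 0.866 in all layers (p = 0.0119, adjusted p = 0.019). GRF7 made up 0.0194% of the sum in ligule L1, 2.71% in blade and 2.85% in sheath. GRF13 made up 15.5% ± 3.11 in ligule L1, 2.11% ± 0.796 in blade and 3.29% ± 2.1 in sheath (n = 3 each). Shares add to a whole, so a larger share of one gene and smaller shares of others are not separate results. The sum was lower in the ligule, and there a GRF gene of even level gains share. The level of GRF10 itself did not pass in edgeR. It differed by 0.20 in the adaxial L1 (adjusted p = 0.774) and by 0.57 in all layers (adjusted p = 0.22).

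**Figure D3:**
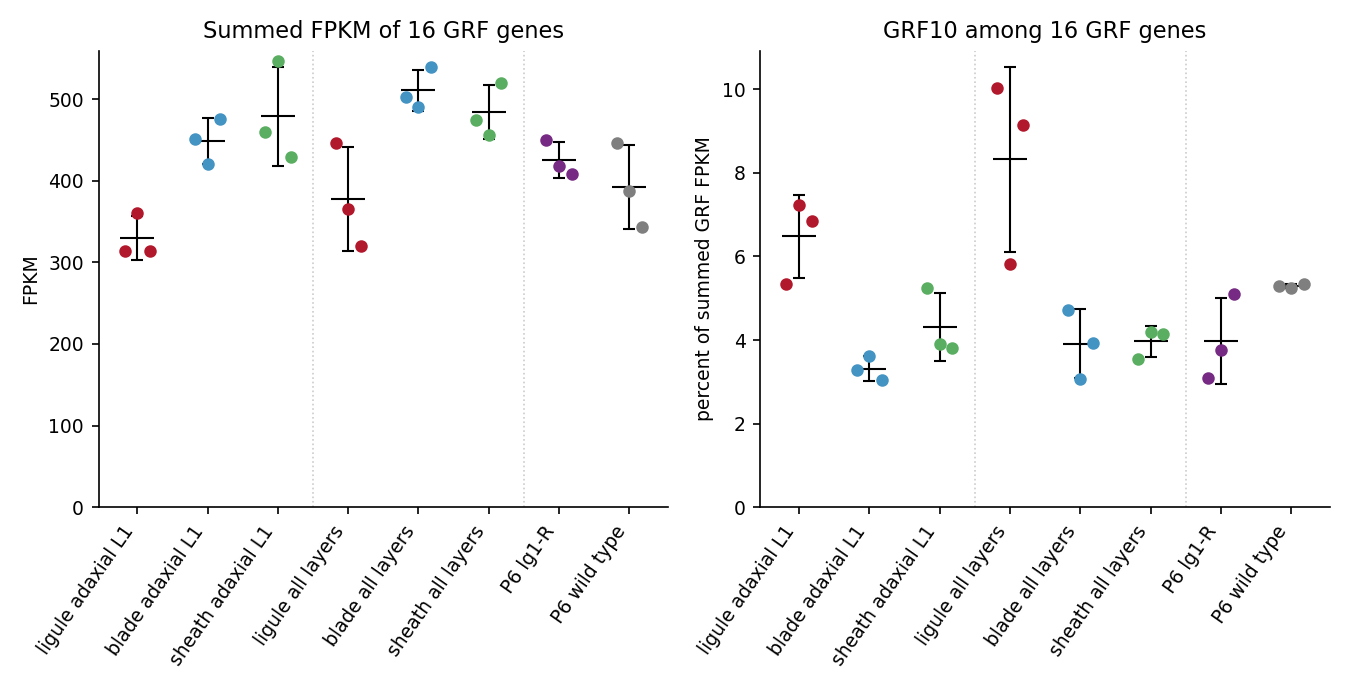
Left, summed FPKM of 16 GRF genes (y axis) and right, the percentage of that sum held by GRF10 (y axis), in each library of the 8 groups; points are libraries, black bars the group mean and SD of 3 libraries. The ligule libraries lie below blade and sheath of the same depth on the left and above them on the right, at 5.35% to 7.24% in the adaxial L1 and 5.81% to 10.02% in all layers.

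Genes of processes tied to the GRF and GIF proteins were counted beside them. Of 25 genes named for the cell cycle, 0 of 25 tested were called by edgeR in the ligule of all layers. There edgeR called 2.74% of all genes higher and 1.83% lower. Of the list, 7 had an unadjusted p below 0.05 in edgeR, DESeq2 called 3, and limma 0 of 23 tested. The median of the 25 was 0.01 beside 0.03 over all genes. In the adaxial L1 4 of 23 were called higher and 1 lower, against 2.95% and 4.78% of all genes, with a median of 0.04. MCM6, a subunit of the replicative helicase, rose by 0.75 (SE 0.15, adjusted p = 0.00722 in edgeR), pcna2, a DNA polymerase clamp, by 0.68 (SE 0.14, adjusted p = 0.00819), the cyclin gene cyc1 by 0.85 (SE 0.22, adjusted p = 0.0295) and the retinoblastoma-related gene rbr3 by 0.86 (SE 0.23, adjusted p = 0.0331). The D-type cyclin gene cycD2 fell by 1.13 (SE 0.28, adjusted p = 0.0252). Taken singly, 0 of 23 were called higher against blade and 3 against sheath (MCM6, pcna2 and PCNA), where 2.25% and 2.13% of all genes were called higher; against blade 3 were higher at an unadjusted p below 0.05, and DESeq2 called 2 and limma 1. Between blade and sheath 2 of 23 were called higher in blade in the adaxial L1, against 0.858% of all genes. In all layers 0 of 25 were, against 0.504%. The pcna2 call held under all 18 alternatives and the MCM6 call under 17, while rbr3 lost its call under 12, cyc1 under 6 and cycD2 under 5. The list includes 7 genes with krp symbols, a name used in maize also for kinesin-related proteins. Of 9 chromatin remodelling genes, 5 could be tested at either depth. Among these, chr124 (GRMZM2G049766) was called higher in the ligule of all layers (0.74, adjusted p = 0.0421 in edgeR), against 2.74% of all genes. That call was lost under 11 of 17 alternatives. In the adaxial L1 edgeR called 0 between the ligule and the mean of blade and sheath, against 2.95% of all genes higher and 4.78% lower. There 2 had an unadjusted p below 0.05, DESeq2 called 1 and limma 0, and chr124 was at 0.86 (adjusted p = 0.206 in edgeR). Against blade alone, chr101a was called lower in the ligule L1 (-0.77, adjusted p = 0.0307 in edgeR), where 4.23% of all genes were called lower.

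In P6 primordia no member passed the edgeR test between genotypes, and gif1 had a wide spread. The coactivator had 1224, 780 and 330 CPM in the libraries labelled lg1-R, against 403, 340 and 462 CPM in wild type. Replicates 1 and 2 of lg1-R lay above all wild-type libraries, and replicate 3 lay below them. The difference was 0.95 (SE 0.38, unadjusted p = 0.0274, adjusted p = 0.671 in edgeR), and it ran from 0.47 to 1.32 when single libraries were left out. With no filter on low counts, a setting that called 482 genes, it passed (0.94, adjusted p = 0.0124). GRF7 had 8.05, 7.59 and 9.51 CPM in lg1-R and 12.1, 8.84 and 7.37 CPM in wild type, a difference of -0.17 (SE 0.24, adjusted p = 0.943).

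GRF1 was even across the P6 libraries, with 19.1, 17.5 and 21.4 CPM in lg1-R and 16, 16.9 and 16.2 CPM in wild type. The lg1-R libraries all lay above wild type, but the difference was 0.24 (SE 0.18, adjusted p = 0.882 in edgeR). GRF10 had 18, 20.2 and 22.5 CPM in lg1-R and 28.3, 21.9 and 20.8 CPM in wild type, with overlap, and differed by -0.22 (SE 0.20, adjusted p = 0.894). In edgeR 0 of 17 family genes were called in this comparison, in which 0.00471% of 21249 genes, a single gene, were called at all. The 2 family genes with an unadjusted p below 0.05 in edgeR were gif1 and GRMZM2G178261 (0.53, unadjusted p = 0.0397). DESeq2 called 0 of 17 as well, and limma 0 of 15. Of the cell cycle genes edgeR and DESeq2 called 0 of 25, and of the chromatin genes 0 of 6. For the same lists limma called 0 of 22 and 0 of 5. At an unadjusted p below 0.05 in edgeR there were 1 and 0.

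Ordered by mean CPM, GRF7 ran through sheath L1 (22.6), blade L1 (22.3), sheath all layers (21.6), blade all layers (16.5), P6 wild type (9.42), P6 lg1-R (8.38), ligule all layers (4.22) and ligule L1 (0.0987). The ranges of neighbouring groups in that order overlapped down to blade all layers and again between the P6 groups, and the remaining steps were free of overlap. GRF1 was highest in sheath all layers (23.0 CPM), and neighbours in its order were free of overlap only at P6 wild type (16.4 CPM) and ligule all layers (8.44 CPM), and at blade L1 (4.75 CPM) and ligule L1 (0.327 CPM). GRF10 gave no such break, its means lying between 20.2 CPM in P6 lg1-R and 35.4 CPM in ligule all layers with every neighbouring pair overlapping. For gif1 the one break lay between ligule all layers (211 CPM) and sheath L1 (119 CPM), with P6 lg1-R (778 CPM) at the top and ligule L1 (74.0 CPM) at the bottom.

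Over the 24 libraries the log2 levels of GRF7 and GRF1 rose and fell together with a Pearson r of 0.692, those of gif1 and GRF1 with 0.686 and those of gif1 and GRF7 with 0.545. GRF10 ran against all of them, at -0.575 with gif1, -0.289 with GRF1 and -0.224 with GRF7. The libraries share regions, layers and scaling, so these values describe the data and are not tests. Among 1115 or 1116 named genes with an average log2 CPM of at least 3, the closest in pattern to GRF7 were POD1 (r = 0.947), TIM (0.94) and aoc1 (0.926). For GRF1 they were GAPC (0.9), mips2 (0.876) and gst6 (0.847). For gif1 they were COR413-TM1 (0.878), mips2 (0.861) and ccp2 (0.835), and for GRF10 ohp2 (0.742), bHLH90 (0.706) and mpk6 (0.693).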

How the data were processed

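Per the file headers, the authors deposited expected counts (read numbers estimated by their tool) in one file and FPKM in another, with 1 column per library. TopHat2 2.0.10 and Cuffdiff 2.1.1 appear in the submitters' processing notes, which assign them no step. Genome build, annotation and strandedness were not given in the sources used here, and reads shared between near-identical GRF genes may be split between them. RNA went through 2 rounds of linear amplification, per the labels' protocols. Of the values of each library, 0.27% to 0.6% were not whole, with no tolerance, and counts were rounded before testing.

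Gene names came from RefSeq (assembly Zm-B73-REFERENCE-NAM-5.0). There 18259 identifiers matched 1 locus and 519 matched several, and 2538 had a name other than a code. The GRF and GIF list took every identifier with such a symbol or synonym; 2 14-3-3 genes that share the letters were left out by their GF14 synonyms, because no protein table was used. The members and lists were chosen with earlier results of these data known. The 4 members are named throughout, tested family genes are counted and named where called, and cell cycle and chromatin genes where called. Sequences of these genes were not used here.

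Differences were tested with edgeR 4.0.16 in R 4.3.3 (robust quasi-likelihood test, TMM factors, genes with at least 10 counts in enough libraries and 15 in total), with Benjamini-Hochberg adjustment over all genes tested and a threshold of 0.05. The SE of an edgeR value was worked back from its test, as the absolute log2 difference over the square root of the F value. It is unreliable where the difference is near 0 or a group has hardly any counts. Separate fits held the 9 libraries of each P7 depth, all 18 for comparisons between depths, and the 6 of P6. Normalised CPM used TMM factors over 24 libraries. Single summed values were tested by an exact permutation test of 3 against 6 libraries. Alternatives were edgeR with RLE factors, with no filter, with the replicate block, without each library and in 1 fit of 24 libraries, DESeq2 1.42.0, and limma 3.58.1 on log2(FPKM + 1), on log2(FPKM + 0.1) and on log2(FPKM + 1) unfiltered (otherwise at least 1 FPKM in 3 libraries). The scripts were tested on simulated data. Figures were drawn with matplotlib 3.10.9.

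The labels number the replicates alike in several groups. Same-numbered blade and ligule libraries of all layers deviated from their group means together, with r of 0.393, 0.336 and 0.213 over all genes, and were taken as paired. Pairs with sheath ran from -0.432 to 0.25, pairs in the adaxial L1 from -0.054 to 0.04 and pairs in P6 from -0.151 to 0.065, and these were not. Sheath replicate 5 was at 0.25 with blade replicate 5 and 0.248 with ligule replicate 5, above the weakest pair taken. The pairing thus rests on the same data it was used on. The labels do not say whether replicates were grown or dissected separately, so p-values measure the spread between these samples.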

Additional observations from a re-analysis of the deposited data

Results flagged for a closer look

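The ligule step of GRF7 differed between the adaxial L1 and all layers of P7, with a difference of -4.95 on the log2 scale (SE 0.71, adjusted p = 0.00036, edgeR test of the difference itself). Ligule L1 libraries had 0, 0 and 6 counts. GRF11 (GRMZM2G067743) differed in the same way, at -2.34 (SE 0.46, adjusted p = 0.00642), with 21, 5 and 30 counts in the ligule L1 libraries against 735, 205 and 331 in blade L1 and 110, 176 and 81 in sheath L1.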

How the results depend on the processing

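The GRF7 calls in the ligule, against blade, sheath and their mean at both depths, between depths and for the difference of the steps, were kept under all alternatives run (against the mean -11.04 to -3.68 in the adaxial L1 and -2.57 to -1.78 in all layers, between depths -9.52 to -1.93), as was the gif1 call of the ligule in the adaxial L1 (-1.70 to -1.22). GRF10 was never called. GRF1 in the ligule passed with no filter at -1.27 in all layers and at -4.17 in the adaxial L1, and there also with DESeq2 (-4.20) and in 1 fit of 24 libraries (-4.22); leaving out single libraries gave -1.73 to -0.86 and -4.83 to -3.41. gif1 in lg1-R passed with no filter (0.94), the 1 family gene called in that setting; the cause was not tested. GRF7 in lg1-R changed sign without wild-type replicate 1 (0.07; -0.32 to 0.07 over all libraries left out).

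The count of GRF and GIF genes called for the ligule was 7 with DESeq2 and 2 with unfiltered limma in all layers, and 4 with unfiltered limma and 11 in 1 fit of 24 libraries in the adaxial L1. Leaving out libraries gave 1 to 4 and 4 to 8. Counts over all genes ran from 639 to 1890 in all layers (1014 as reported), from 826 to 3858 in the adaxial L1 (1451) and from 0 to 482 in P6 (1). Calls of named genes that are no members were kept in 569 of 699 values and lost in 130, and none changed sign.

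Uncalled differences near 0 changed sign in the following settings. Without blade replicate 3, blade against sheath in all layers was 0.05 for GRF1 and -0.01 for GRF10 (over all libraries left out -0.75 to 0.05 and -0.01 to 0.28). Ligule against sheath in the adaxial L1 for GRF10 was -0.13 without ligule replicate 2 and -0.12 without sheath replicate 3 (-0.13 to 0.15 over all left out), and -0.01 in 1 fit of 24 libraries. Blade against sheath in the adaxial L1 was, for GRF7, 0.22 without blade replicate 2, 0.07 without sheath replicate 2 (-0.27 to 0.22 over all left out) and 0.22 without the libraries that stand apart, and for GRF1 0.30 in limma on log2(FPKM + 0.1) and 0.91 without sheath replicate 2 (-1.12 to 0.91). The layer difference of gif1 in blade was 0.35, 0.08 and 0.02 without blade replicate 5 of all layers, 2 or 3 of the adaxial L1 (-0.29 to 0.35), and 0.08 without the libraries that stand apart. That of GRF7 in sheath was -0.12, -0.13 and -0.12 in the 3 limma fits, and -0.14 and -0.09 without sheath replicate 3 of all layers or 2 of the adaxial L1 (-0.14 to 0.27).

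The replicate block over 9 libraries of a depth, or the 6 of P6, changed no member's call (GRF7 -7.25 in the adaxial L1 and -2.17 in all layers, gif1 -1.47 and -0.64). The blocked fit of 6 blade and ligule libraries, which called GRF1 and gif1 where the same 6 libraries without the block did not, and the fit without that block were chosen after seeing the data, as were leaving out the libraries that stand apart and the sum without GRMZM2G178261. In all layers, sheath replicates 3 and 4 correlated best with the ligule libraries numbered 4 and 3 (r = 0.452 and 0.462), a hint from the data only. In ligule replicate 2 of the adaxial L1, with 3818649 counts, a floor of 3 counts is 0.786 CPM.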
